A study of Bos taurus with 8 samples.

Results

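*NFKBIZ*, the gene of the nuclear inhibitor-like protein IκBζ, and 9 other genes of the NF-κB pathway were followed in chondrocytes of the superficial zone (SZCs) and of the deep zone (DZCs) of calf articular cartilage. The 10 genes were chosen by name. All 10 were found among the 24596 genes of the count table, and all 10 were among the 12857 genes with enough counts to be tested. The cells came from the knee joints of wild type calves 1 to 2 weeks old, and neither zone was given a further treatment. They were grown for 3 days in medium with 10% fetal bovine serum after their release from cartilage, so the values describe freshly cultured cells and not the intact tissue. RNA-Seq was performed on 2 libraries per zone, in a study that set out to find regulators of transcription specific to SZCs.

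NF-κB is a family of dimeric transcription factors that are held in the cytoplasm by inhibitory IκB proteins. Signals such as tumour necrosis factor, interleukin-1 or bacterial products activate a kinase complex that marks IκB for destruction, and the released dimers enter the nucleus and induce inflammatory genes together with their own inhibitors. IκBζ differs from the classical inhibitors in that it resides in the nucleus and helps NF-κB to induce a subset of late targets. In cartilage this pathway is known for inducing matrix-degrading enzymes, cytokines and prostaglandin synthesis in response to inflammatory signals and loading. Because the activity of NF-κB is set by protein location and modification, the mRNA levels given here do not measure it.

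The libraries held between 19918970 and 21890549 counts. Levels are given as CPM, the counts scaled to a common library size after correction by the trimmed mean of *M* values (TMM), and 3 counts, the smallest level taken as measurable, corresponded to between 0.129 and 0.187 CPM. DZC replicate 1 stood apart, with 24.5% of its counts from *COL2A1* (cartilage collagen II) against 12.9% in DZC replicate 2 and 6.31% to 7.18% in the SZC libraries. DZC replicate 2 stood apart by its markers of hypertrophic cartilage and bone, such as *IBSP* with 268 counts against at most 2 in any other library. The zone labels fitted the 5 superficial zone markers, all of which, *PRG4* among them, passed the test and were higher in SZCs. Zones were compared by edgeR's exact test with Benjamini–Hochberg adjustment (FDR) over all 12857 genes, at a threshold of 0.05, and SE stands for the standard error of a log2 fold change. The methods call the libraries biological duplicates without saying whether they came from separate calves, so the p-values measure the spread between these libraries.

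None of the 10 genes passed the FDR threshold between SZCs and DZCs. By edgeR's exact test 0 of 10 were called, where 2.93% of all tested genes were called, and 1 of the 10, *NFKBIZ*, had an unadjusted p-value below 0.05, where 9.09% of all tested genes did. DESeq2 and the quasi-likelihood test of edgeR with the replicate number as a block also called 0 of the 10. Without a block the latter called 0 of all tested genes, so its 0 of the 10 says nothing about the members. The median log2 fold change (SZC over DZC) of the 10 genes was 0.11, and that of all tested genes was -0.04. *NFKBIZ*, *NFKBIA*, *TNFAIP3* and *CCL2* were higher in both SZC libraries than in either DZC library, a pattern that 21.0% of all tested genes had. *PTGS2* was higher in both DZC libraries, as were 20.5% of all tested genes. The other 5 overlapped between the zones. Such a separation of the libraries, in either direction, was seen in 41.5% of all tested genes.

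**Figure D1:**
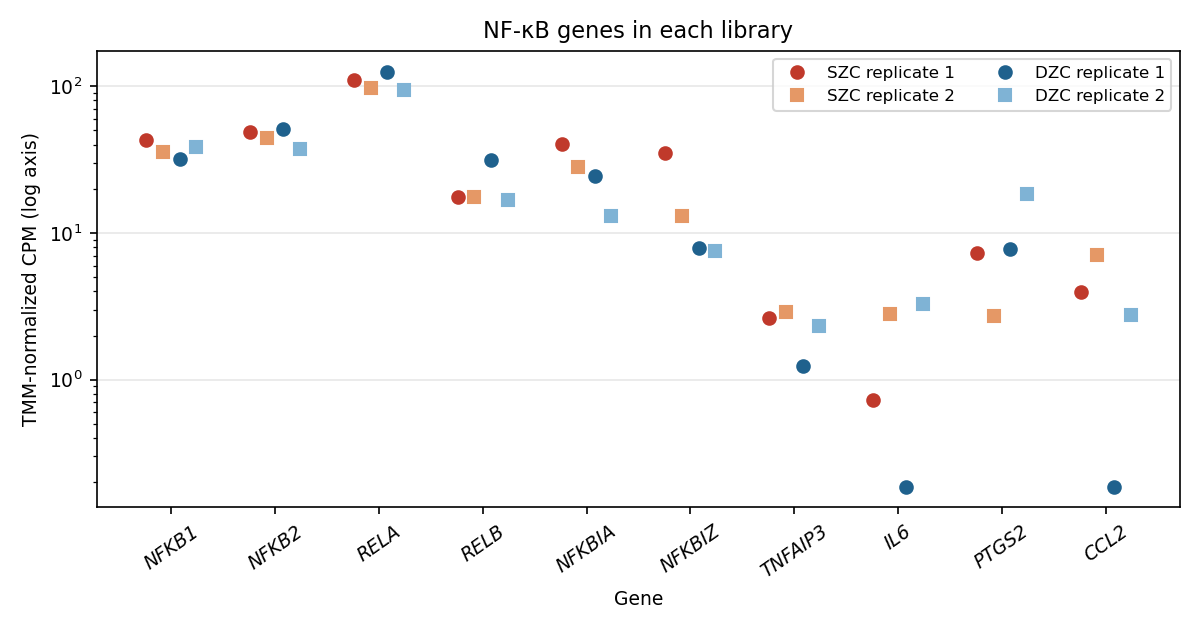
Level of each of the 10 NF-κB genes in each of the 4 libraries, as TMM-normalized CPM on a log axis, with 1 point per library. The points of *NFKB1*, *NFKB2* and *RELA* lie close together, *NFKBIZ* is highest in SZC replicate 1 at 35.3 CPM, and *IL6* and *CCL2* are lowest in DZC replicate 1 at 0.187 CPM.

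The genes of the DNA-binding subunits were detected in all 4 libraries, and none passed the test between zones. *RELA* (ENSBTAG00000013895) encodes p65, the main transactivating subunit. It was at 110 and 96.9 CPM in the SZC libraries and at 126 and 94.5 CPM in the DZC libraries. The DZC values enclosed both SZC values, and the log2 fold change was -0.09 (95% interval -0.80 to 0.62). *NFKB1* (ENSBTAG00000020270) encodes p105, the precursor of the p50 subunit that pairs with p65. It was at 43.2 and 35.6 CPM in SZCs and at 32.0 and 38.6 CPM in DZCs. The zones overlapped, with a log2 fold change of 0.16 (95% interval -0.53 to 0.84).

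*NFKB2* (ENSBTAG00000006017) encodes p100, the precursor of the p52 subunit of the non-canonical pathway. It was at 48.8 and 44.5 CPM in SZCs and at 51.5 and 37.6 CPM in DZCs, a log2 fold change of 0.07 (95% interval -0.63 to 0.77). For *RELA*, *NFKB1* and *NFKB2* the FDR was 1 by edgeR's exact test. Their intervals reach no further than 0.84 on the log2 scale, but they take the spread and the scaling as known. Larger differences are therefore not excluded. Scaled by library totals alone, *NFKB1* had a log2 fold change of 0.43 (SE 0.45). *RELB* (ENSBTAG00000038428), the partner of p52, was at 17.7 CPM in each SZC library and at 31.6 and 16.7 CPM in the DZC libraries. A single library, DZC replicate 1, lay apart from the other 3. The log2 fold change was -0.44 (95% interval -1.32 to 0.43, FDR 0.964 by edgeR's exact test). It was 0.09 without DZC replicate 1 and -0.82 without DZC replicate 2. *REL*, which encodes c-Rel, completed the family of 5 with a log2 fold change of -0.29 (95% interval -1.46 to 0.87), from -0.55 to 0.05 with each library left out. Of the 5 subunit genes 0 passed edgeR's exact test, where 2.93% of all tested genes did, and the zones overlapped for each of the 5, where 41.5% of all tested genes did not overlap. The intervals of *RELB* and *REL* include differences of over 1 on the log2 scale.

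Of the 10 members, *NFKBIZ*, on the list of inhibitors, had the lowest p-value between zones. *NFKBIZ* (ENSBTAG00000010987) had 776 and 305 counts in the SZC libraries, against 127 and 168 in the DZC libraries. These counts correspond to 35.3 and 13.1 CPM in SZCs (24.2 ± 15.6, SD, n = 2) and to 7.90 and 7.53 CPM in DZCs (7.72 ± 0.262, SD, n = 2). Both SZC values lay above both DZC values, but the SZC libraries differed from each other by 2.68-fold, while the DZC libraries differed by 1.05-fold. The log2 fold change was 1.65 (95% interval 0.54 to 2.76), a 3.13-fold difference with an unadjusted p-value of 0.0049 and an FDR of 0.12 by edgeR's exact test. Under the other settings that used all 4 libraries its FDR lay between 0.0662 and 0.42. By p-value *NFKBIZ* ranked 527 of the 12857 genes, and the size of its log2 fold change was at the 94.6 percentile.

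The size of the *NFKBIZ* difference rested on SZC replicate 1. Without that library the log2 fold change was 0.76, and without SZC replicate 2 it was 2.19. Without DZC replicate 1 it was 1.69, and without DZC replicate 2 it was 1.63. In these fits the zone with 1 library was assumed to vary like the other zone, and the number of genes called changed widely. For the members, the log2 fold change of such a fit is therefore given without an FDR. SZC replicate 1 also had the highest summed level of 11 immediate early genes, which cells induce within minutes of a stimulus. That sum was 1050 CPM in SZC replicate 1, against 368 in the other SZC library and 496 and 431 in the DZC libraries. In SZC replicate 1 *EGR1* made up 519 CPM of it, *FOS* 162 and *JUNB* 152, while *JUN*, *ATF3* and *FOSL1* were lower there than in any other library, at 32.8, 35.2 and 4.41 CPM. The part of this difference in the *NFKBIZ* values was not tested.

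*NFKBIA* (ENSBTAG00000016683) encodes IκBα, the classical inhibitor that NF-κB induces to switch itself off. It was at 40.5 and 28.3 CPM in SZCs (34.4 ± 8.58, SD, n = 2) and at 24.6 and 13.0 CPM in DZCs (18.8 ± 8.22, SD, n = 2). The zones did not overlap, although the lower SZC value was close to the higher DZC value. The log2 fold change was 0.88 (95% interval -0.03 to 1.78; FDR 0.613 by edgeR's exact test). It was 1.41 without DZC replicate 1 and 0.50 without DZC replicate 2. Without SZC replicate 1 it was 0.59 and without SZC replicate 2 it was 1.11. Within a library, the ratio of *NFKBIZ* to *NFKBIA* CPM, not divided by transcript length, was 0.871 and 0.464 in SZCs and 0.322 and 0.581 in DZCs. This ratio overlapped between the zones.

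*TNFAIP3* (ENSBTAG00000000436) encodes A20, a ubiquitin-editing enzyme that ends signalling from the tumour necrosis factor receptor. It was at 2.64 and 2.89 CPM in SZCs and at 1.24 and 2.33 CPM in DZCs. Both SZC libraries lay above both DZC libraries, by little in the case of DZC replicate 2. Its log2 fold change was 0.62 (95% interval -0.66 to 1.89; FDR 0.977 by edgeR's exact test) and ranged from 0.25 to 1.16 with each library left out.

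**Figure D2:**
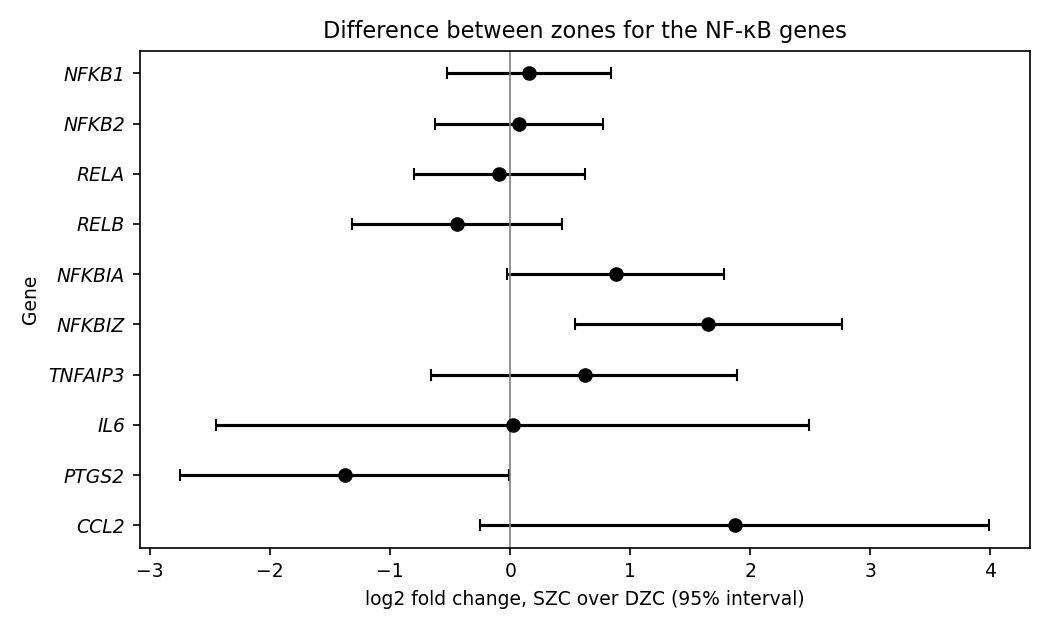
Log2 fold change of SZCs over DZCs for the 10 NF-κB genes (points) with 95% intervals from the negative binomial model (bars), not adjusted for multiple testing. The intervals of *NFKBIZ* (0.54 to 2.76) and *PTGS2* (-2.75 to -0.01) leave out 0, and neither gene passed the FDR threshold. By edgeR's exact test the unadjusted p-value of *PTGS2* was 0.0564. *IL6* has the widest interval, from -2.45 to 2.49.

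The 3 induced targets among the members did not share a direction. *CCL2* (ENSBTAG00000037811), a chemokine that attracts monocytes, had 87 and 163 counts in the SZC libraries, against 3 and 62 in the DZC libraries. It was at 3.95 and 7.02 CPM in SZCs and at 0.187 and 2.78 CPM in DZCs, and the zones did not overlap. Its log2 fold change of 1.87 was the largest of the 10 in size (95% interval -0.25 to 3.99; FDR 0.739 by edgeR's exact test). DZC replicate 1, where *CCL2* was at the smallest measurable level, set much of this value. Without that library the log2 fold change was 0.99, and without DZC replicate 2 it was 4.85.

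*IL6* (ENSBTAG00000014921), the gene of the cytokine interleukin-6, had 16 and 65 counts in SZCs, against 3 and 73 in DZCs. It was at 0.727 and 2.80 CPM in SZCs and at 0.187 and 3.27 CPM in DZCs. In each zone replicate 2 was the higher library, and the difference within a zone was larger than that between zones. The log2 fold change was 0.02 (95% interval -2.45 to 2.49; FDR 1 by edgeR's exact test), so a difference in *IL6* was not detectable with these libraries. Its direction depended on the libraries used, at -1.25 without SZC replicate 2, -0.88 without DZC replicate 1 and 3.22 without DZC replicate 2.

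*PTGS2* (ENSBTAG00000014127) encodes cyclooxygenase-2, the inducible enzyme of prostaglandin synthesis. It was at 7.31 and 2.71 CPM in SZCs (5.01 ± 3.25, SD, n = 2) and at 7.78 and 18.3 CPM in DZCs (13.0 ± 7.43, SD, n = 2). DZC replicate 2 was the highest library, while DZC replicate 1 was close to SZC replicate 1. The log2 fold change was -1.38 (95% interval -2.75 to -0.01), the largest of the 10 in favour of DZCs. By edgeR's exact test its unadjusted p-value was 0.0564 and its FDR 0.581. The log2 fold change was -1.86 without DZC replicate 1 and -0.62 without DZC replicate 2. Without SZC replicate 1 it was -2.26 and without SZC replicate 2 it was -0.83. DZC replicate 2 also had the highest sum of 8 hypertrophic and bone markers, 270 CPM against 19.1 in DZC replicate 1 and 103 to 110 in the SZC libraries. Most of this sum was *SPP1* (osteopontin), at 108 and 102 CPM in SZCs and at 18.9 and 201 CPM in DZCs. The other 7 markers, summed after these values were seen, came to 1.99 and 1.47 CPM in SZCs and to 0.187 and 69.2 CPM in DZCs. Their part in the *PTGS2* values was not tested.

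**Figure D3:**
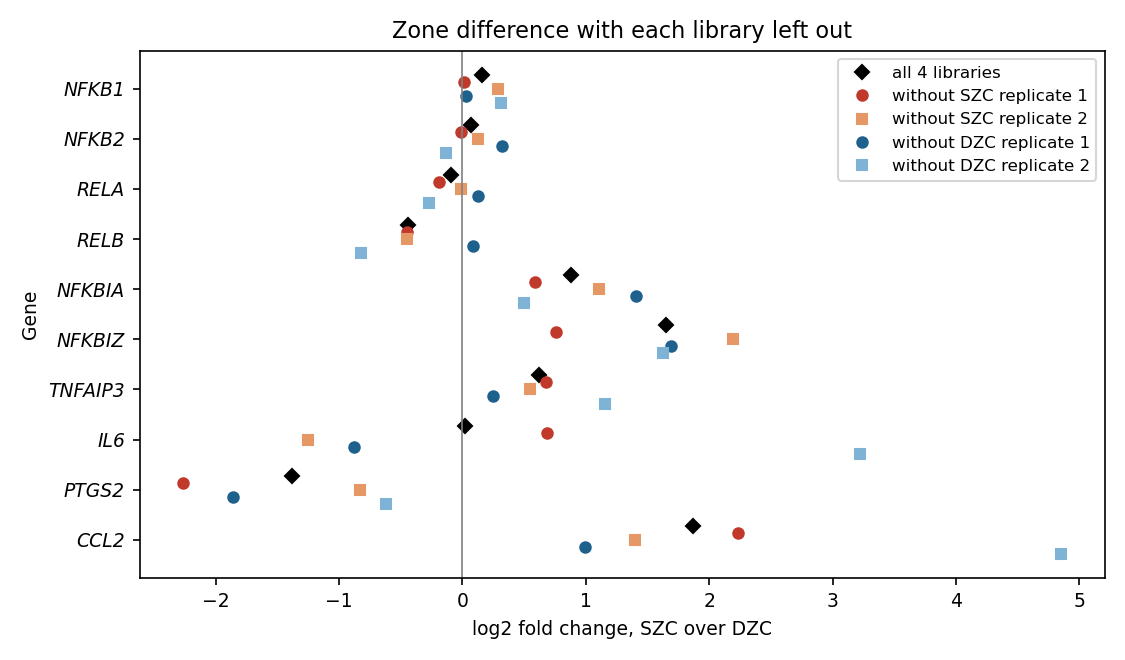
Log2 fold change of SZCs over DZCs for the 10 NF-κB genes with all 4 libraries (diamonds) and with each library left out (coloured points). *NFKBIZ* stays above 0 throughout, from 0.76 to 2.19, while *IL6* moves from -1.25 to 3.22.

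The cytokine genes among the members are also expressed by immune cells, whose markers varied between libraries. The summed level of 12 immune cell markers was 21.5 and 38.6 CPM in the SZC libraries (replicates 1 and 2) and 7.96 and 18.8 CPM in the DZC libraries. *CCL2* had the same order of libraries as this sum, with SZC replicate 2 highest and DZC replicate 1 lowest. *IL6* did not, as it was highest in DZC replicate 2, where the sum was below that of both SZC libraries. Of the 12 markers 7 were tested, and their log2 fold changes were all above 0 with a median of 1.00. None of the 7 passed edgeR's exact test, where 2.93% of all tested genes did. By that test 1 of the 7, the monocyte marker *CD14* (log2 fold change 1.41), had an unadjusted p-value below 0.05, where 9.09% of all tested genes did. *PTPRC*, the common marker of white blood cells, had 6 and 14 counts in SZCs and 0 and 9 in DZCs, and the T cell marker *CD3E* had at most 3 counts in any library. The summed level of 5 endothelial markers was 5.32 and 10.6 CPM in SZCs and 3.86 and 7.79 CPM in DZCs. The part of such cells in the levels of *CCL2* and *IL6* was not tested, and in these bulk samples fewer cells of a type cannot be told apart from less RNA per cell.

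Genes were also ranked by the likeness of their levels to those of *NFKBIZ* across the 4 libraries. *NFKBIZ* was highest in SZC replicate 1, so the choice itself picks genes that are high there. Likeness was measured as the root mean square difference of log2(CPM + 1) after centring each gene. The nearest of 12856 genes was *EGR3*, an immediate early transcription factor, with a difference of 0.0364 and levels of 4.13 and 0.991 CPM in SZCs and 0.249 and 0.134 CPM in DZCs. *TRHDE*, a peptidase that degrades thyrotropin-releasing hormone, followed with a difference of 0.0560, and the water channel gene *AQP5* was also near, with 0.0713. The other 2 of the nearest 5, ENSBTAG00000019017 and ENSBTAG00000010782, have no name in the files. Among the members *NFKBIA* was nearest, ranking 364, and *PTGS2* was farthest, ranking 12447. This is a description of 4 points per gene, and the added 1 CPM compresses low levels, so that likeness on this scale does not mean equal folds. *EGR3* differed 13.3-fold between the zones and 4.17-fold between the SZC libraries, against 3.13-fold and 2.68-fold for *NFKBIZ*, and *TRHDE* had 1 and 0 counts in the DZC libraries.

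The wider pathway was read from 11 lists covering 160 genes, including the 10 members. Of these genes 155 were in the table and 124 were tested. Of the 124, 6 passed the FDR threshold as higher in SZCs and 0 as higher in DZCs by edgeR's exact test. Across all tested genes 2.23% were called as higher in SZCs and 0.700% as higher in DZCs. The median log2 fold change of the 124 genes was 0.08, close to the -0.04 of all tested genes. All 6 called genes lay in the 3 lists of induced targets and prostaglandin genes. With all libraries, the quasi-likelihood test of edgeR without a replicate block called 0 of these 6 and 0 of all tested genes, with 1126 genes below an unadjusted p-value of 0.05.

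**Figure D4:**
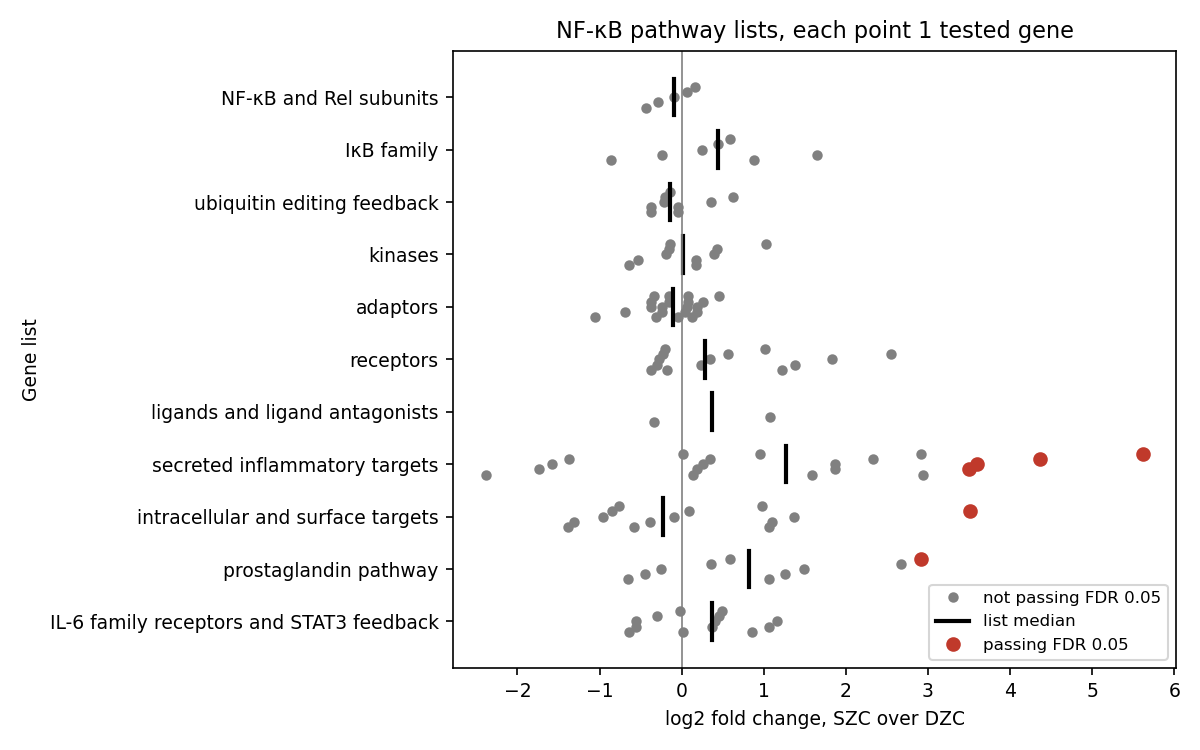
Log2 fold change of SZCs over DZCs for each tested gene (points) in 11 lists of NF-κB pathway genes, with the median of each list (vertical bars). The kinase list has a median of 0.02 and the adaptor list one of -0.10, and the 6 genes that passed the FDR threshold, from 2.91 to 5.62, lie in the secreted targets, the intracellular and surface targets and the prostaglandin list.

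No tested gene of the kinase, adaptor or feedback lists passed the test, where 2.93% of all tested genes were called. Of the 10 tested kinases and kinase partners none passed, with a median log2 fold change of 0.02, and 4 of the 10 did not overlap between the zones, where 41.5% of all tested genes did not. The largest values were those of *MAP3K14*, the kinase that starts the non-canonical pathway (log2 fold change 1.03, SE 0.57), and of *CHUK*, which encodes IKKα (-0.64, SE 0.33). With each library left out that of *MAP3K14* ranged from 0.49 to 1.42 and that of *CHUK* from -0.71 to -0.58. None of the 20 adaptors passed, with a median of -0.10, and 15 of the 20 overlapped between the zones. *TRAF1*, an adaptor that is itself an NF-κB target, was at 11.2 and 9.35 CPM in SZCs and at 27.6 and 15.0 CPM in DZCs. Its log2 fold change was -1.05 (FDR 0.391 by edgeR's exact test). With each library left out it ranged from -1.41 to -0.54, the latter without DZC replicate 1. *TRAF5* had a log2 fold change of -0.69 with a SE of 1.43, and its sign turned with the library left out, from -4.03 to 1.47. Of the 9 tested ubiquitin-editing and feedback genes none passed, with a median of -0.14, and after *TNFAIP3* the largest value was that of the A20 partner *TAX1BP1* (-0.37, SE 0.37). The 7 IκB family genes had a median of 0.44, and none of them passed.

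Receptors and their ligands were also compared. None of the 14 tested receptor genes passed, where 2.93% of all tested genes did, and their median was 0.29. *TLR4*, the receptor for bacterial lipopolysaccharide, had 72 and 111 counts in SZCs, against 2 and 27 in DZCs. Its log2 fold change was 2.55 (SE 0.97, FDR 0.245 by edgeR's exact test). It was 4.97 without DZC replicate 2 and 1.74 without DZC replicate 1. *TLR3*, a sensor of double-stranded RNA, had 61 and 89 counts in SZCs, against 0 and 41 in DZCs (log2 fold change 1.83, FDR 0.895). The log2 fold change of *TLR3* was 0.85 without DZC replicate 1. Without DZC replicate 2 the remaining DZC library has 0 counts, and no fold is given. *TNFRSF1A* and *IL1R1*, the main receptors for tumour necrosis factor and interleukin-1, were named after their values were seen. Their log2 fold changes were -0.27 (SE 0.35) and -0.23 (SE 0.36). Of 12 ligand and antagonist genes only 2 had enough counts to be tested. These were *IL18*, with a log2 fold change of 1.08 (SE 0.76), and *LTB*, with -0.34 (SE 0.77). With each library left out *IL18* ranged from 0.62 to 1.87, and *LTB* from -0.65 to 0.05, so that its sign turned. *TNF*, *IL1A* and *IL1B*, the classical activators of the pathway and also named after their values were seen, had at most 1 count in any library, below the smallest measurable level.

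Among 20 tested secreted targets, 4 passed edgeR's exact test, all higher in SZCs, where 2.23% of all tested genes were called in that direction, while the quasi-likelihood test without a block called 0. The list had the highest median log2 fold change of the 11, 1.27. *PTX3*, a secreted pattern recognition protein, was at 48.5 and 208 CPM in SZCs and at 0.747 and 4.44 CPM in DZCs. It was 49.0-fold higher in SZCs, with a log2 fold change of 5.62 (SE 0.94, FDR 0.000152 by edgeR's exact test), and from 4.21 to 7.43 with each library left out. *CFB*, complement factor B, was at 191 and 23.0 CPM in SZCs and at 6.10 and 4.21 CPM in DZCs (log2 fold change 4.37, SE 0.89, FDR 0.00211). *SAA3*, an acute phase protein, was at 1990 and 460 CPM in SZCs and at 98.8 and 118 CPM in DZCs (log2 fold change 3.50, SE 0.69, FDR 0.000689). It belongs to a family of similar genes whose reads may be shared. *CSF3*, the granulocyte growth factor, had 45 and 33 counts in SZCs, against 4 and 1 in DZCs (log2 fold change 3.60, SE 0.98, FDR 0.0135). *CSF3* did not pass in DESeq2 (FDR 0.0948).

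Of these calls 3 were lost without SZC replicate 1, a fit in which the number of genes called fell from 377 to 58. The FDR by edgeR's exact test was then 0.395 for *CFB*, 0.116 for *SAA3* and 1 for *CSF3*, and their log2 fold changes were 2.15, 2.08 and 3.28, whereas *PTX3* passed with each library left out in turn. *CSF3* also missed the threshold without SZC replicate 2 (FDR 0.363). Of the secreted targets that did not pass, the largest were *MMP1*, a collagenase, and *C3*, the central complement component. *MMP1* had a log2 fold change of 2.94 (SE 1.14, FDR 0.159 by edgeR's exact test) and 0 counts in DZC replicate 1. *C3* had one of 2.91 (SE 0.90, FDR 0.0773), and of 1.32 without SZC replicate 1. In DESeq2 with all libraries *C3* passed (FDR 0.0352).

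The genes *IL6*, *CCL2* and *LCN2* are known in immune cells as targets that need IκBζ. This grouping was made after the values were seen and is not a full set of such targets, so it does not describe them as a group. *LCN2*, which encodes the iron-binding protein lipocalin-2, was at 156 and 141 CPM in SZCs and at 537 and 231 CPM in DZCs. It was higher in both DZC libraries, as were 20.5% of all tested genes. Its log2 fold change was -1.37 (SE 0.50, FDR 0.156 by edgeR's exact test). Without DZC replicate 2 it was -1.84, and without DZC replicate 1, the highest library, it was -0.63. With all 4 libraries none of these 3 genes passed the test, and their log2 fold changes were 0.02 for *IL6*, 1.87 for *CCL2* and -1.37 for *LCN2*.

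**Figure D5:**
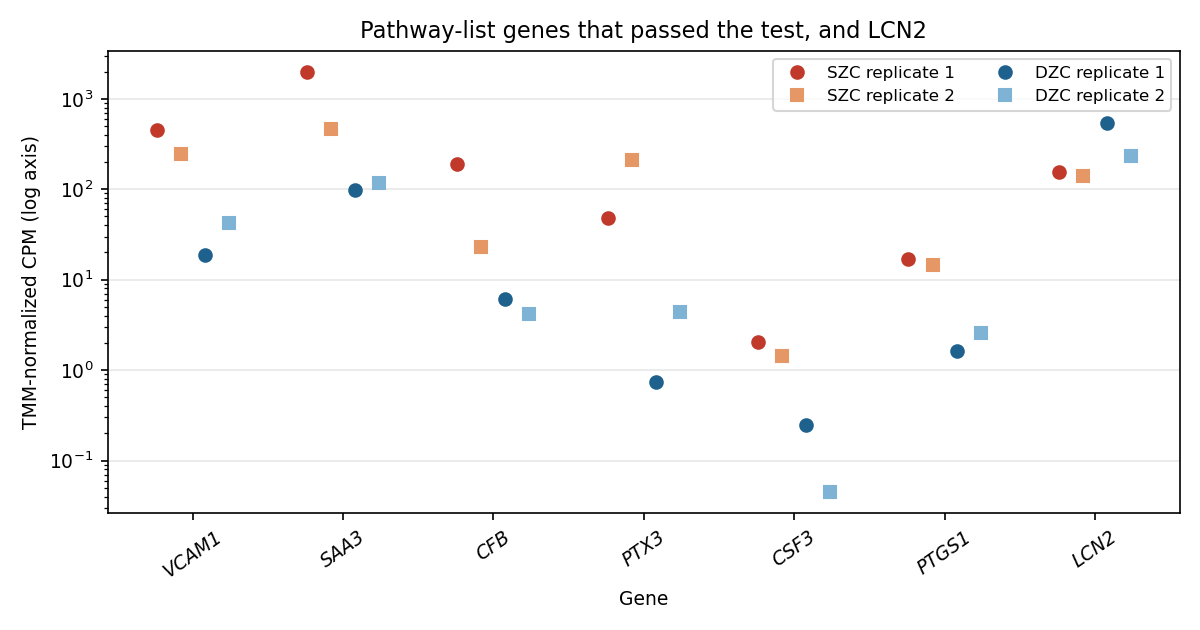
Level of the 6 pathway genes that passed the FDR threshold, and of *LCN2*, in each of the 4 libraries, as TMM-normalized CPM on a log axis. Both SZC libraries lie above both DZC libraries for *VCAM1*, *SAA3*, *CFB*, *PTX3*, *CSF3* and *PTGS1*, and *LCN2* shows the reverse, with 537 CPM in DZC replicate 1.

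Of 14 tested intracellular and surface targets, 1 passed the test, where 2.93% of all tested genes did, and the median log2 fold change was -0.23. *VCAM1*, a cell adhesion molecule that binds white blood cells, was at 454 and 248 CPM in SZCs (351 ± 145, SD, n = 2) and at 18.9 and 42.6 CPM in DZCs (30.7 ± 16.7, SD, n = 2). Its log2 fold change was 3.51 (SE 0.54, FDR 1.8e-06 by edgeR's exact test), an 11.4-fold difference, and it passed with each library left out. *NOS2*, the inducible nitric oxide synthase, had a log2 fold change of 1.37 (SE 0.77), from 0.75 to 1.80 with each library left out. In this list 5 genes were higher in both SZC libraries and 5 were higher in both DZC libraries, patterns that 21.0% and 20.5% of all tested genes had.

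*PTGS1*, on the prostaglandin list, is the constitutive counterpart of the inducible *PTGS2*. It encodes cyclooxygenase-1 and was at 17.1 and 14.5 CPM in SZCs (15.8 ± 1.84, SD, n = 2) and at 1.62 and 2.55 CPM in DZCs (2.09 ± 0.663, SD, n = 2). It was 7.49-fold higher in SZCs, with a log2 fold change of 2.91 (SE 0.50, FDR 1.01e-05 by edgeR's exact test), and 1 of 10 tested genes of the list passed, where 2.93% of all tested genes did. Leaving out SZC replicate 1 took its FDR to 0.227, with the log2 fold change between 2.63 and 3.30 over the libraries left out. *PTGS1* and *PTGS2* thus had log2 fold changes of opposite sign, of which the former alone passed the test. The receptor gene *PTGER2* had 29 and 24 counts in SZCs, against 2 and 5 in DZCs (log2 fold change 2.67, FDR 0.0559, and 0.0479 when genes at or under 1 CPM in 3 or more libraries were dropped), and the prostaglandin D synthase gene *PTGDS* had a log2 fold change of 1.49 (SE 0.86, FDR 0.732). With a library left out that of *PTGDS* ranged from 0.63, without SZC replicate 1, to 3.30, without DZC replicate 1.

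Genes that receive and relay the interleukin-6 signal were compared because *IL6* is a member. None of the 13 passed, where 2.93% of all tested genes did, and their median log2 fold change was 0.37. *IL6R*, the ligand-binding receptor, was at 2.91 and 1.64 CPM in SZCs and at 0.809 and 1.21 CPM in DZCs (log2 fold change 1.16, SE 0.71). *OSMR*, the receptor of the related cytokine oncostatin M, had a log2 fold change of 1.07 (SE 0.50, FDR 0.463 by edgeR's exact test). That of *OSMR* was 1.73 without DZC replicate 2 and 0.62 without DZC replicate 1. For both genes the SZC libraries lay above the DZC libraries, as they did for 21.0% of all tested genes.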

How the data were processed

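The authors used STAR (2.5.2b) and Ensembl build UMD 3.1 for alignment, ignored strand when counting reads, and deposited raw counts for 24596 genes. A second deposited table holds log2 fold changes and FDR values of the authors' own comparison, which were not used; it served only to fill 19 blank gene names. The ATAC-Seq libraries were not analysed here.

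The analysis used edgeR 4.0.16 (R 4.3.3) with TMM scaling, the default filter on low counts (12857 genes kept) and the exact test, as the study's methods name it. Standard errors and 95% intervals follow from the negative binomial model. Alternatives were edgeR's quasi-likelihood test with and without a replicate block, DESeq2 1.42.0, other filters (none, or more than 1 CPM in at least 2 libraries), scaling and dispersion, and each library left out. The scripts were tested on simulated data.

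The members and lists were chosen with earlier results of these data known. Besides the members, the rule named genes called in each list and the 2 largest differences among the rest with at least 10 counts in some library. It also named the 5 genes most like *NFKBIZ*, and markers. Further genes, such as *TNFRSF1A*, *LCN2* and *LIF*, were named outside this rule with their values in view. Levels were not divided by gene length, so they are not compared between genes. In RefSeq (assembly ARS-UCD2.0) *NFKB1* overlaps LOC100335751 and LOC112447046, *NFKB2* overlaps LOC132343951, and the other 8 members overlap no gene.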

Additional observations from a re-analysis of the deposited data

How the results depend on the processing

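With 2 libraries per zone the spread rests on few values, and 10 of 12 ligand and antagonist genes had too few counts to be tested. The number of genes called, 377, was 0 in the quasi-likelihood test of edgeR without a block, where 1126 genes had an unadjusted p-value under 0.05, and the 6 called pathway genes were then 0. Under the other 7 settings that used all libraries the number lay between 332 and 397. With a library left out it ranged from 58 to 2725, the called pathway genes from 2 to 40 and the called members from 0 to 4. The spread is then taken from 1 zone and the mean of the other zone changes too, and the parts of these were not told apart. The log2 fold changes with a library left out ranged from 0.76 to 2.19 for *NFKBIZ*, 0.50 to 1.41 for *NFKBIA*, 0.01 to 0.31 for *NFKB1*, -0.13 to 0.32 for *NFKB2*, -0.27 to 0.13 for *RELA*, -0.82 to 0.09 for *RELB*, 0.25 to 1.16 for *TNFAIP3*, -1.25 to 3.22 for *IL6*, -2.26 to -0.62 for *PTGS2* and 0.99 to 4.85 for *CCL2*. The sign reversed for *NFKB2* without SZC replicate 1 (-0.01) or DZC replicate 2 (-0.13), for *RELA* (0.13) and *RELB* (0.09) without DZC replicate 1, and for *IL6* as given above. Scaling by library totals alone moved the median of all tested genes by 0.30 and turned *RELA* to 0.25, below that shift. It moved *NFKBIA* from 0.88 to 1.26 (FDR 0.109 by edgeR's exact test) and *RELB* from -0.44 to -0.06. The share of calls that were higher in SZCs rose from 76.1% to 86.7%. The TMM factor was 0.735 for DZC replicate 1 and from 1.08 to 1.14 for the other libraries.

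Libraries of the zones share replicate numbers, and across genes same-numbered libraries deviated from their zone means with a correlation of 0.42. The paper describes cutting both zones from the same cores and collecting slices by joint, so the zones can share joints. Nothing in the sources used here says that the replicate numbers pair the libraries. With the replicate number as a block, edgeR's quasi-likelihood test called 347 genes, 277 of them among the 377, and 0 of the 10 members. *NFKBIZ* then had a log2 fold change of 1.48 (FDR 0.105). *CSF3* did not pass with the block (FDR 0.0551), and *PTGDS* did (log2 fold change 1.82, FDR 0.0296), which makes 2 called genes in the prostaglandin list in place of 1.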

Other observations

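Several pathway and immediate early genes differed within a zone more than *NFKBIZ* did. This choice was made with their values in view. Between the SZC libraries, replicate 1 exceeded replicate 2 by 8.29-fold for *CFB*, 5.01-fold for *C3* and 4.32-fold for *SAA3*, against 2.68-fold for *NFKBIZ*. Other secreted targets went the other way. For these, SZC replicate 2 exceeded replicate 1 by 4.28-fold for *PTX3*, 3.85-fold for *IL6* and 2.97-fold for *CXCL5*. The immediate early gene *EGR1* was at 519 and 62.6 CPM in SZC replicates 1 and 2 and at 113 and 26.6 CPM in DZC replicates 1 and 2. *FOS* was at 162 CPM in SZC replicate 1 and between 44.2 and 58.8 CPM in the other 3 libraries.

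The induced genes *LIF*, *CXCL12* and *MMP13* were highest in DZC replicate 2, a choice made with the values in view. *LIF*, a cytokine of the interleukin-6 family, had 12 and 10 counts in SZCs, against 8 and 103 in DZCs. The chemokine gene *CXCL12* had 38 and 79 counts in SZCs, against 6 and 334 in DZCs, and the collagenase gene *MMP13*, which is also on the list of hypertrophic markers, had 468 counts in DZC replicate 2 and 0 in the other 3 libraries. Other induced genes, *ATF3* (88.3 CPM), *GADD45B* (146), *IER3* (76.6), *LCN2* (537) and *TNFAIP6* (8.46), were highest in DZC replicate 1.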
